A study of Mus musculus with 6 samples.

Results

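Lysosomal, vacuolar proton pump and autophagy genes were examined in macrophages sorted from mouse heart grafts, with and without mTOR inhibition. The 34 genes are named members of 5 functional classes: 3 genes of the TFEB family, 6 of lysosomal membrane proteins, 6 of hydrolases and other proteins of the lysosomal lumen, 7 of the proton pump and 12 of autophagy. All 34 were found among the 22180 genes that had a probe set with exactly 1 gene symbol, and each is represented by its brightest probe set over all arrays. The recipients were C57BL/6 mice carrying a BALB/c heart, a fully mismatched graft that untreated recipients reject. In 1 group (3 arrays) the recipients had received mTORi-HDL, an mTOR inhibitor packaged in high-density lipoprotein particles, at 5 mg/kg on days 0, 2 and 5. In the other group (3 arrays) they were untreated. Graft macrophages were collected by flow cytometry on day 6, and every array was made from 15 ng of amplified RNA. No group received the particle without the drug, so drug and carrier cannot be told apart. The labels give neither the ages of the mice nor the sort markers, and they do not say whether each array stands for a separate recipient, so the p-values measure the spread between these samples only.

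The lysosome degrades what macrophages engulf and what autophagy delivers from inside the cell. Its lumen is kept acid by the vacuolar ATPase, a rotary pump with a cytosolic V1 sector that splits ATP and a membrane V0 sector that carries protons. The pump also takes part in the activation of mTOR complex 1 on the lysosomal surface. Active mTOR complex 1 phosphorylates the transcription factors TFEB, TFE3 and MITF and keeps them out of the nucleus, and it restrains the start of autophagy. When it is inhibited these factors enter the nucleus and activate lysosomal and autophagy genes through promoter elements built around the letters CACGTG. An array measures transcripts and shows nothing of where the factors lie in the cell.

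The RefSeq promoter table (build GRCm38.p6, 250 bases before to 50 after a start) held 26 of the 34 genes. CACGTG, which reads the same on both strands, was present in a promoter of 7 of the 26 (Lamp1, Mcoln1, Gaa, Atp6v1a, Atp6v0d1, Atg5 and Atg7), which is 26.9%, against 8.09% of all 27025 genes in the table. The longer TCACGTGA, which contains CACGTG, was present in 3 of the 26 (Mcoln1, Atp6v1a and Atp6v0d1), or 11.5%, against 1.12% of all genes. These matches are a description of letters in a window, not of binding sites. The 27025 genes were not matched to the 26, and the difference between the shares was not tested. The 100 bases just before the start are printed for Lamp1 and Mcoln1, which hold several copies, and for Lamp2, the companion of Lamp1, which holds none. Capitals mark CACGTG. They lie at chr8:13159061-13159160 (plus strand) for Lamp1, chr8:3500419-3500518 (plus strand) for Mcoln1 and chrX:38456461-38456560 (minus strand) for Lamp2.
Lamp1: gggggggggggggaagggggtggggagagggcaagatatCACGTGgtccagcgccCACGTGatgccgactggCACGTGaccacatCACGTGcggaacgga
Mcoln1: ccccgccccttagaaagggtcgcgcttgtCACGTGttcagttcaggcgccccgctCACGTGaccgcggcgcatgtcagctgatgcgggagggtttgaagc
Lamp2: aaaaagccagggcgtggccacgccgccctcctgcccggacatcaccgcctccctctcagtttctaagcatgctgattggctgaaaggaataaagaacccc
The Lamp1 stretch holds 4 copies, the Mcoln1 stretch 2 and the Lamp2 stretch 0.

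The array mTORi-HDL 1 stood apart from the others, so differences are given over all arrays and without it. The correlation of its values with any other array was 0.708 to 0.741, against 0.892 to 0.912 between any pair of the other 5, and its slope on the mean of those 5 was 0.641. When all genes were ranked by their mean on the other 5 arrays and divided into 4 equal bins of 5545, the median of mTORi-HDL 1 minus the untreated mean was -1.26 in the brightest bin and 0.62 in the dimmest. Of the 34 genes 20 belonged to the brightest bin, and mTORi-HDL 1 was the lowest of the 6 arrays for 14 of them; the same was true of 69.3% of all genes in that bin. On mTORi-HDL 2 and mTORi-HDL 3 those 20 genes had medians of 0.32 and 0.44 above the untreated mean, against 0.01 and -0.05 for all genes of the bin. The plot of each treated array against the untreated level shows the slope of mTORi-HDL 1 and its absence on the other treated arrays.

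**Figure D1:**
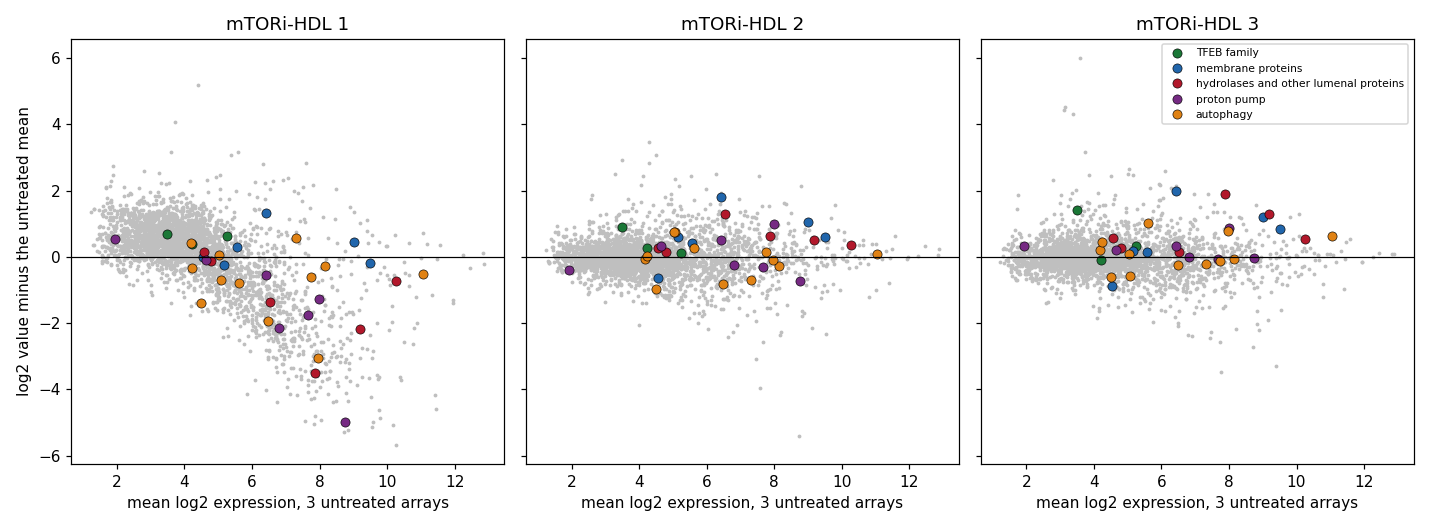
Each panel is 1 treated array. The x axis is the mean log2 expression of a gene on the 3 untreated arrays and the y axis is its log2 value on that array minus this mean; coloured points are the 34 genes by class and grey points are 2998 other genes drawn at random. Bright genes lie far below 0 on mTORi-HDL 1, while on mTORi-HDL 2 and mTORi-HDL 3 the grey cloud lies level.

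Markers of several cell types differed between the groups. All 7 macrophage markers lay above the untreated mean on mTORi-HDL 2 and mTORi-HDL 3, and their mean log2 level was 8.44 and 9.25 there, against 7.52 to 7.77 on the untreated arrays and 6.76 on mTORi-HDL 1. Over all arrays 5 of the 7 differences were positive, with a median of 0.35. Lyz2, the macrophage lysozyme, was bright on all arrays (10.80 to 11.62). The 7 measured T cell markers of 8 listed had a mean of 6.98 to 8.69 on the treated and 9.50 to 9.77 on the untreated arrays, and Cd3g, which encodes a CD3 chain, was at 8.63 to 10.96, so T cell transcripts were present in every sample. All 7 T cell differences stayed negative, and all 6 fibroblast differences positive, under median centring, quantile normalization and cyclic loess. The 6 fibroblast markers had a mean of 5.60 to 5.81 on the treated and 4.41 to 4.68 on the untreated arrays. The 3 measured dendritic cell markers of 4 listed had positive differences (median 0.96, and 1.45 without mTORi-HDL 1) and the 3 measured B cell markers of 4 listed had negative ones (median -0.83, and -0.49), with the same signs under those 3 scalings. The median differences of the NK cell, neutrophil, cardiomyocyte, endothelial, and erythroid and platelet markers were -0.06, 0.05, 0.40, 0.11 and 0.65. Without mTORi-HDL 1 they were 0.20, -0.17, -0.03, 0 and -0.04. RMA values have no true zero, so no marker can be called absent. The part of these shifts in the results below was not tested. In sorted bulk samples a change in the mix of cells and a change in RNA per cell cannot be told apart.

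The groups were compared by limma over all 22180 genes, and differences are mTORi-HDL minus untreated on the log2 scale. None of the 34 genes passed a Benjamini-Hochberg adjusted p of 0.05, whether all arrays were used (smallest adjusted p 0.890) or mTORi-HDL 1 was left out (smallest 0.254). The background was the same, with 0% of all genes called in either comparison. Among the 34, 3 had an unadjusted p under 0.05 and a higher level (Mitf, Lamp2 and Cd63), where 1.57% of all genes did, and 1 had a lower level (Gabarapl1), where 3.07% of all genes did. Without mTORi-HDL 1 these counts were 7 higher, against 3.47% of all genes, and 1 lower, against 3.51%. Of all genes at an unadjusted p under 0.05, 33.9% were higher, and 46.2% after cyclic loess. The 3 treated arrays all lay above the 3 untreated arrays for Mitf, Lamp2 and Cd63, against 5.37% of all genes, and all lay below them for Gabarapl1, against 5.53%. mTORi-HDL 2 and mTORi-HDL 3 both lay above all untreated arrays for 11 of the 34, against 9.75% of all genes, and both below for 1, against 12.5%. The 11 were Mitf, Lamp1, Lamp2, Cd63, Npc1, Hexa, Npc2, Grn, Atp6v1a, Atp6v1b2 and Atg7. Over all arrays 21 of the 34 differences were positive (61.8%, against 58.2% of all genes), with a median of 0.08, as for all genes. After quantile normalization 24 were positive, with a median of 0.16 against 0.04 for all genes, and after cyclic loess 24, with 0.33 against 0.01; after median centring 18 were, with 0.01 against 0.01. Without mTORi-HDL 1, 25 were positive (73.5%, against 46.6%), with a median of 0.28 against -0.03.

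**Figure D2:**
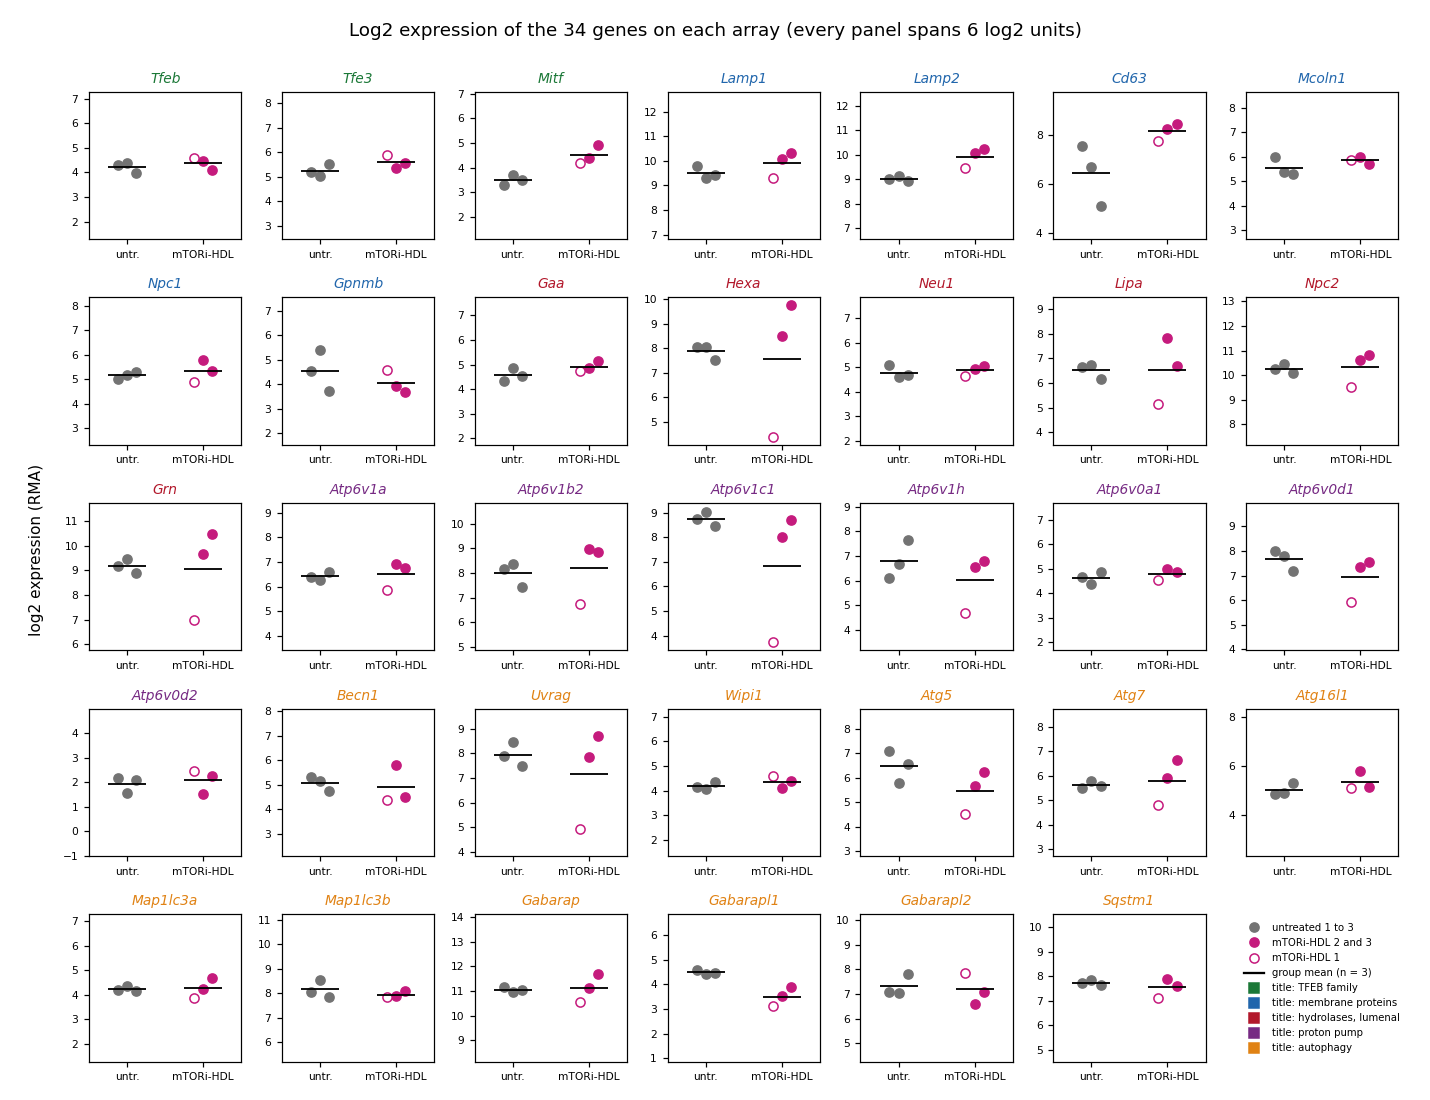
Log2 expression of each of the 34 genes by array, with the untreated arrays in grey, mTORi-HDL 2 and 3 as filled and mTORi-HDL 1 as open circles, and bars at the group means (n = 3); title colours give the class and every panel spans 6 log2 units. The groups are separate for Mitf, Lamp2, Cd63 and Gabarapl1, and the open circle lies far below the rest for Hexa, Grn, Atp6v1c1 and Uvrag.

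Of the TFEB family, Mitf stood out. Mitf, the family member best known from pigment cells, osteoclasts and mast cells, was at 4.18, 4.40 and 4.91 on mTORi-HDL 1, 2 and 3 and at 3.27, 3.68 and 3.51 on untreated 1, 2 and 3. Every treated array lay above every untreated one, except after cyclic loess, where the groups overlapped. The log2 difference was 1.01 ± 0.30 (SE, n = 3 each; limma, unadjusted p 0.0104, adjusted p 0.890) and, without mTORi-HDL 1, 1.17 ± 0.26 (adjusted p 0.360). The gene was dim, and over all genes of its brightness bin the median of mTORi-HDL 1 minus the untreated mean was 0.55, against -0.04 and -0.03 on mTORi-HDL 2 and mTORi-HDL 3.

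Tfeb, a lysosomal regulator after which the class is named here, was at 4.60, 4.48 and 4.12 on the treated and 4.30, 4.39 and 3.98 on the untreated arrays. These ranges overlapped, and the difference of 0.18 ± 0.27 (SE) was smaller than its error. Tfe3, its close relative in macrophages, was at 5.89, 5.36 and 5.57 on the treated and 5.19, 5.05 and 5.51 on the untreated arrays. The treated mean was higher by 0.36 ± 0.28, but untreated 3 reached into the treated range. Without mTORi-HDL 1 the differences were 0.08 ± 0.25 for Tfeb and 0.22 ± 0.24 for Tfe3. All 3 family members kept a positive difference under median centring, quantile normalization and cyclic loess.

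The 6 genes of lysosomal membrane proteins were mostly on the higher side. Of them 5 had a positive difference, against 58.2% of all genes, and 5 also under median centring, quantile normalization and cyclic loess. The class median of 0.35 became 0.55 when mTORi-HDL 1 was left out. Without mTORi-HDL 2, 4 of the 6 were positive. Of 22 further lysosomal membrane genes only 9 were positive, with a median of -0.05, and 12 without mTORi-HDL 1, with a median of 0.09. Lamp2, a heavily glycosylated protein of the lysosomal membrane that takes part in chaperone-mediated autophagy, was at 9.46, 10.05 and 10.22 on the treated arrays and at 9.01, 9.12 and 8.91 on the untreated ones. The groups were separate, although after median centring mTORi-HDL 1 overlapped with the untreated arrays. The difference was 0.90 ± 0.29 (SE; unadjusted p 0.0172) and, when mTORi-HDL 1 was left out, 1.12 ± 0.21 (unadjusted p 0.00130, adjusted p 0.254).

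Lamp1, its companion and the other main lysosomal membrane glycoprotein, was at 9.31, 10.09 and 10.33 on the treated arrays and at 9.78, 9.31 and 9.42 on the untreated ones. mTORi-HDL 2 and mTORi-HDL 3 lay above all untreated arrays, and mTORi-HDL 1 lay at the lower end of them. The difference was 0.41 ± 0.34 over all arrays and 0.71 ± 0.24 (unadjusted p 0.0240, adjusted p 0.595) without mTORi-HDL 1. The promoter of Lamp1 printed above holds 4 copies of CACGTG and that of Lamp2 none, and both differences were positive. Of the other genes with CACGTG, over all arrays Mcoln1 (0.29), Gaa (0.34), Atp6v1a (0.10) and Atg7 (0.17) had positive differences. Atg5 (-1.01) and Atp6v0d1 (-0.71) had negative ones. Whether the differences go with the motif was not tested.

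Cd63, a tetraspanin of late endosomes, lysosomes and exosomes, was at 7.75, 8.23 and 8.42 on the treated arrays and at 7.52, 6.69 and 5.07 on the untreated ones. The treated arrays were close together and the untreated arrays ranged widely, with untreated 1 just below the treated range. The difference of 1.71 ± 0.60 (SE; unadjusted p 0.0224) was the largest positive one of the 34. It was 1.90 ± 0.66 without mTORi-HDL 1 and 1.03 without untreated 3.

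The remaining membrane genes moved less. Mcoln1, the lysosomal calcium channel TRPML1, had a difference of 0.29 ± 0.29 on all arrays and 0.29 ± 0.28 without mTORi-HDL 1, and untreated 1 (5.99) lay above all treated arrays. Npc1, a membrane protein that carries cholesterol out of the lysosome, had 0.18 ± 0.30, and 0.40 ± 0.24 without mTORi-HDL 1; a second, dimmer probe set for it had 0.05 and 0.06. Gpnmb, a glycoprotein strongly induced in lipid-laden and lysosome-stressed macrophages, was the exception of the class, at 4.56, 3.91 and 3.67 on the treated and 4.54, 5.40 and 3.71 on the untreated arrays. Its groups overlapped and the difference was -0.50 ± 0.47, or -0.76 ± 0.47 without mTORi-HDL 1.

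For the hydrolases and other lumenal proteins the direction turned with single arrays. Over all arrays 4 of the 6 differences were positive with a class median of 0.04, which was -0.03 after median centring, 0.18 after quantile normalization and 0.34 after cyclic loess. Without mTORi-HDL 1 all 6 were positive, with a median of 0.59, but only 2 were when mTORi-HDL 2, mTORi-HDL 3 or untreated 3 was left out. Hexa, the alpha subunit of beta-hexosaminidase, showed the widest gap, at 4.37, 8.51 and 9.78 on the treated and 8.05, 8.04 and 7.53 on the untreated arrays. mTORi-HDL 2 and mTORi-HDL 3 lay above all untreated arrays, and mTORi-HDL 1 lay 3.50 log2 units below their mean. The difference was -0.32 ± 1.23 (SE) over all arrays and 1.27 ± 0.41 (unadjusted p 0.0175, adjusted p 0.546) without mTORi-HDL 1, and it was 0.30 after cyclic loess and 1.17 with array weights in limma.

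Grn encodes progranulin, a secreted and lysosomal protein that is cut into granulins and supports lysosomal function. It was at 7.0, 9.69 and 10.49 on the treated and 9.18, 9.47 and 8.91 on the untreated arrays. As for Hexa, mTORi-HDL 2 and mTORi-HDL 3 lay above all untreated arrays and mTORi-HDL 1 below all of them. The difference was -0.13 ± 0.82 over all arrays and 0.90 ± 0.32 (unadjusted p 0.0257, adjusted p 0.607) without mTORi-HDL 1, and it was 0.31 after quantile normalization and 0.35 after cyclic loess. Lipa, the lysosomal acid lipase that frees cholesterol and fatty acids from lipoprotein, was at 5.15, 7.82 and 6.67 on the treated and 6.66, 6.74 and 6.18 on the untreated arrays. mTORi-HDL 2 was the highest of all arrays and mTORi-HDL 3 lay within the untreated range; the difference was 0.02 ± 0.63 over all arrays, 0.72 ± 0.38 without mTORi-HDL 1 and -0.61 without mTORi-HDL 2.

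Npc2, the soluble cholesterol-binding partner of Npc1, was bright on all arrays (9.52 to 10.81) with a difference of 0.06 ± 0.38, and 0.46 ± 0.23 without mTORi-HDL 1. Gaa, the acid glucosidase that breaks down glycogen, and Neu1, the lysosomal sialidase, varied little. Their differences were 0.34 ± 0.28 and 0.09 ± 0.28, or 0.42 ± 0.25 and 0.21 ± 0.24 without mTORi-HDL 1, and their values on mTORi-HDL 1 (4.73 and 4.65) lay within the untreated ranges (4.33 to 4.86 and 4.60 to 5.10).

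**Figure D3:**
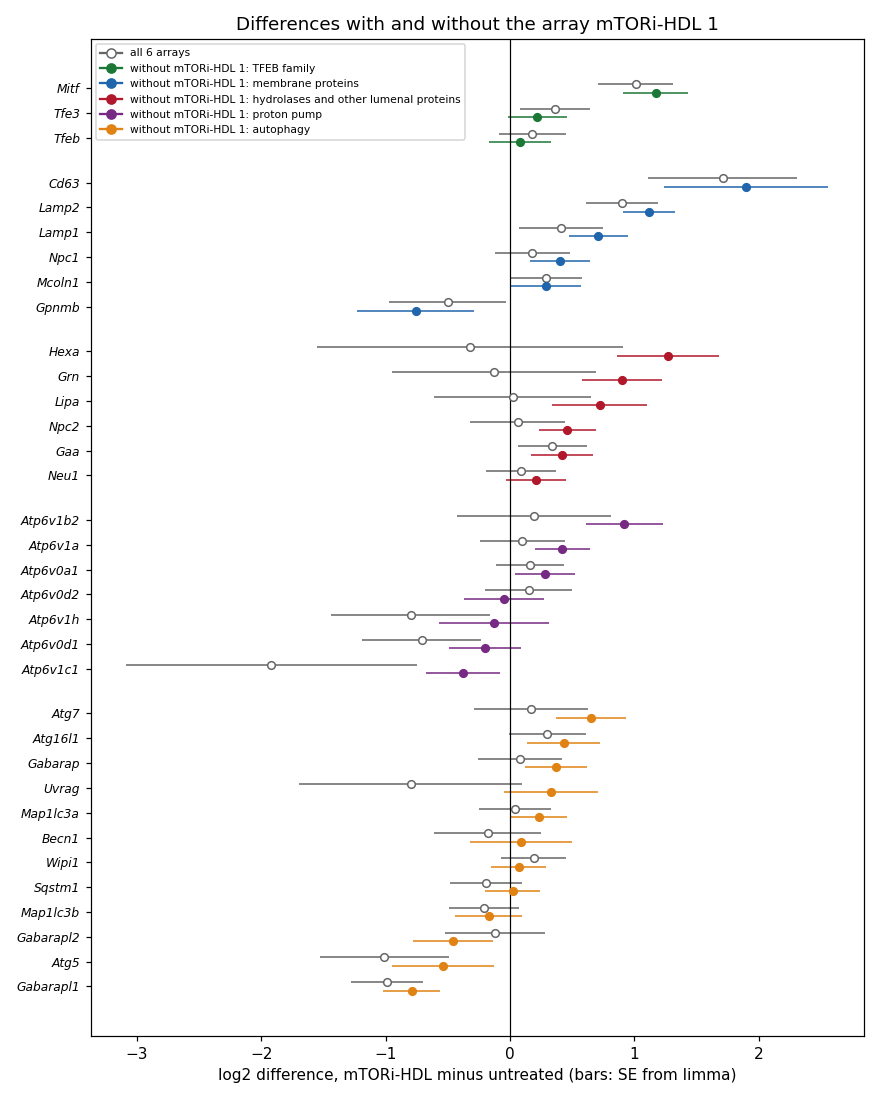
Log2 difference, mTORi-HDL minus untreated, of each gene by class, with open grey points for all 6 arrays and filled points without mTORi-HDL 1; bars are standard errors from limma. Leaving the array out moves Hexa from -0.32 to 1.27 and Atp6v1c1 from -1.92 to -0.38, while Mitf, Lamp2, Cd63 and Gabarapl1 stay on the same side of 0.

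The subunits of the proton pump did not move together. Of the 7 genes 4 had positive and 3 negative differences over all arrays, with a class median of 0.10 that was 0.03, 0.00 and -0.03 after median centring, quantile normalization and cyclic loess, and -0.05 without mTORi-HDL 1. In the V1 sector, Atp6v1b2, the B2 subunit of the catalytic head, was at 6.72, 8.98 and 8.86 on the treated and 8.17, 8.36 and 7.45 on the untreated arrays. mTORi-HDL 2 and mTORi-HDL 3 lay above all untreated arrays and mTORi-HDL 1 below them. The difference was 0.19 ± 0.62 over all arrays and 0.92 ± 0.31 (unadjusted p 0.0229, adjusted p 0.588) without mTORi-HDL 1, but a second probe set for the gene gave -0.72 and 0.32.

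Atp6v1a, the ATP-splitting A subunit, lay between 5.87 and 6.93 and showed the same pattern, with differences of 0.10 ± 0.34 over all arrays and 0.42 ± 0.22 without mTORi-HDL 1. Atp6v1c1, the C subunit that links the sectors when the pump assembles, was at 3.75, 8.02 and 8.72 on the treated and 8.76, 9.04 and 8.45 on the untreated arrays, so that mTORi-HDL 1 lay far below all others. Its difference of -1.92 ± 1.17 (SE, unadjusted p 0.142) rested on mTORi-HDL 1, and without that array it was -0.38 ± 0.30. Atp6v1h, the regulatory H subunit, had -0.80 ± 0.64 and, without mTORi-HDL 1, -0.13 ± 0.44.

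In the V0 sector, Atp6v0a1, an isoform of the proton-conducting a subunit, varied from 4.38 to 4.97 over the 6 arrays with a difference of 0.16 ± 0.27, or 0.28 ± 0.24 without mTORi-HDL 1. Atp6v0d1, the widely expressed d subunit, had -0.71 ± 0.48 and, without mTORi-HDL 1, -0.20 ± 0.29. Atp6v0d2, the isoform known from osteoclasts and some macrophages, was near the bottom of the scale on all arrays (1.51 to 2.46) with a difference of 0.15 ± 0.35, or -0.05 ± 0.32 without mTORi-HDL 1.

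**Figure D4:**
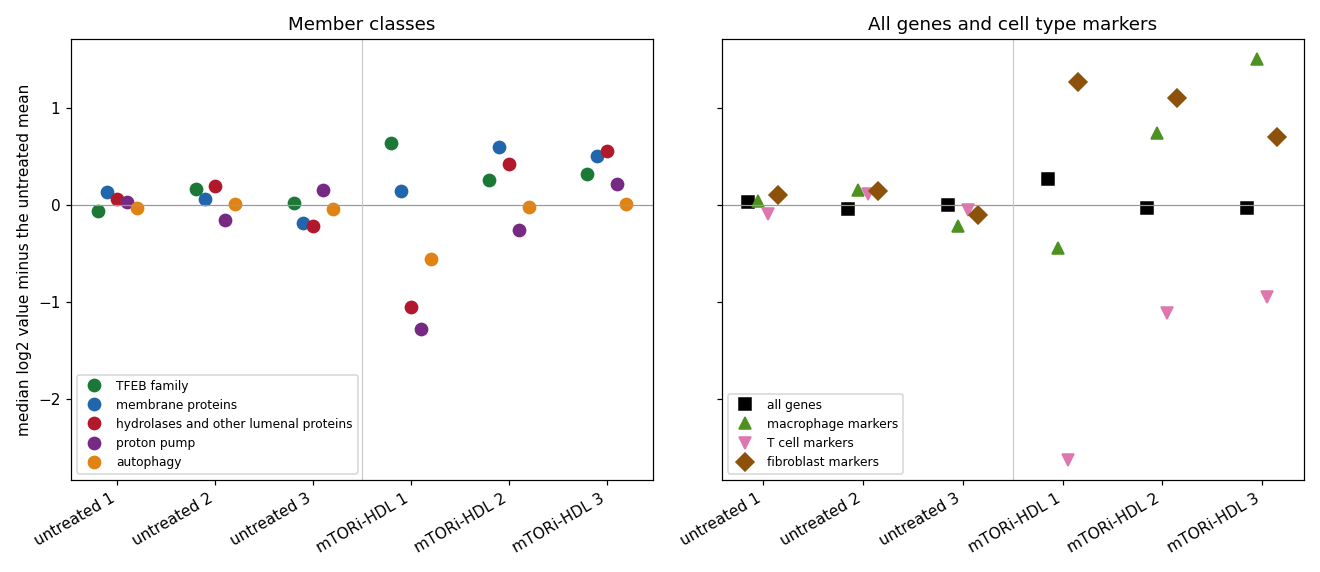
Median over the genes of a list of the log2 value on an array minus the untreated mean, for the 5 classes (left) and for all 22180 genes, 7 macrophage, 7 T cell and 6 fibroblast markers (right). On mTORi-HDL 1 the proton pump lies at -1.28 and the lumenal proteins at -1.05; on mTORi-HDL 2 and 3 the lumenal proteins lie at 0.43 and 0.56 and the macrophage markers at 0.75 and 1.51.

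Among the autophagy genes Gabarapl1 separated the groups, and the class as a whole lay near 0. The class median was -0.15 over all arrays, with 5 of 12 positive, but it was 0.14 after quantile normalization, 0.19 after cyclic loess and 0.08 without mTORi-HDL 1. Gabarapl1 is a member of the ATG8 family, the small ubiquitin-like proteins that are joined to lipid on the autophagosome membrane. It was at 3.12, 3.51 and 3.89 on the treated and 4.58, 4.44 and 4.47 on the untreated arrays. The gene was dim, with a mean over all arrays below the median of all genes. All treated arrays lay below all untreated ones, as they also did after median centring, quantile normalization and cyclic loess. The difference was -0.99 ± 0.29 (SE; unadjusted p 0.0101, adjusted p 0.890) over all arrays and -0.79 ± 0.23 (adjusted p 0.476) without mTORi-HDL 1.

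For the other ATG8 genes the groups overlapped. Gabarap, bright on all arrays at 10.54 to 11.69, had a difference of 0.08 ± 0.34 (0.37 ± 0.25 without mTORi-HDL 1), and its second probe set gave 0.04 and 0.31. Gabarapl2 was highest on mTORi-HDL 1 (7.87) and had -0.12 ± 0.40, which was -0.46 ± 0.32 without that array but 0.28 after quantile normalization and 0.50 after cyclic loess. Map1lc3b, the LC3 form most used as an autophagosome marker, had -0.21 ± 0.28 (-0.17 ± 0.27 without mTORi-HDL 1), and 0.14 and 0.39 under the same scalings. Map1lc3a, a related LC3 form, had 0.04 ± 0.29 (0.23 ± 0.23 without mTORi-HDL 1), and -0.08 and -0.09 under them. Whether Gabarapl1 differs from its relatives was not tested.

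Genes of earlier steps were spread to both sides. Becn1, the Beclin scaffold of the lipid kinase complex that starts the autophagosome, had -0.18 ± 0.43, which turned to 0.09 ± 0.41 without mTORi-HDL 1. Wipi1, which binds the lipid that complex makes, had 0.19 ± 0.26 and, without that array, 0.07 ± 0.22. Uvrag, another partner of that complex, was at 4.91 on mTORi-HDL 1 and between 7.50 and 8.73 on the other 5 arrays, so its difference of -0.80 ± 0.90 turned to 0.33 ± 0.38 when it was left out. Of the conjugation machinery that attaches lipid to the ATG8 proteins, Atg5 had -1.01 ± 0.52 (-0.54 ± 0.41 without mTORi-HDL 1), Atg7 had 0.17 ± 0.46 (0.65 ± 0.28) and Atg16l1 had 0.30 ± 0.31 (0.43 ± 0.29). Sqstm1, the cargo receptor p62, lay between 7.62 and 7.90 on all arrays but mTORi-HDL 1 (7.13), with a difference of -0.19 ± 0.29 that was 0.02 ± 0.22 without it.

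A wider list of 109 lysosome and autophagy genes that are not among the 34, of which 100 were measured, is given for comparison, with no test between the lists. None passed limma's adjusted p of 0.05 (smallest 0.839). At an unadjusted p under 0.05, 0 were higher and 7 lower, against the same 1.57% and 3.07% of all genes; without mTORi-HDL 1, 11 were higher, against 3.47% of all genes, and 6 lower, against 3.51%. The median difference was -0.16 with 38 of 100 positive, but 0.05 with 55 positive after cyclic loess and 0.09 with 52 positive without mTORi-HDL 1. The array mTORi-HDL 1 was the lowest for 53 of them, against 23.4% of all genes. That share depended on brightness, from 2.02% of genes in the dimmest bin to 69.3% in the brightest. The wider list was bright, with a mean level of 6.06 to 6.22 on the untreated arrays against 4.49 to 4.52 for all genes. The 23.4% is not matched for this.

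Of 25 further enzymes and activators, 10 had positive differences, with a median of -0.15, and 14 without mTORi-HDL 1, with a median of 0.25. At an unadjusted p under 0.05 in limma, 0 were higher and 3 lower, against 1.57% and 3.07% of all genes. Without mTORi-HDL 1, 5 were higher and 2 lower, against 3.47% and 3.51%. The smallest p over all arrays belonged to Arsb, the lysosomal arylsulfatase B. It was at 5.17, 7.47 and 7.81 on the treated and 9.46, 8.95 and 9.76 on the untreated arrays. All treated arrays lay below the untreated ones, with a difference of -2.57 ± 0.68 (SE; unadjusted p 0.00595) and, without mTORi-HDL 1, of -1.75 ± 0.30 (adjusted p 0.214). Arsb had 2 probe sets, and the dimmer one is not described here. Sgsh, the sulfamidase of heparan sulfate breakdown, had -0.68 ± 0.27 (unadjusted p 0.0352 in limma) and, without mTORi-HDL 1, -0.77 ± 0.24. Acp5, the tartrate-resistant acid phosphatase of osteoclasts and macrophages, had -0.69 ± 0.28 (unadjusted p 0.0420) and -0.59 ± 0.26, but -0.25 (unadjusted p 0.468) after quantile normalization and -0.19 (unadjusted p 0.611) after cyclic loess. Asah1, acid ceramidase, was singled out after its values were seen, since it had the smallest p of the wider list without mTORi-HDL 1. It reached 7.73 and 8.49 on mTORi-HDL 2 and 3, against 5.94, 5.89 and 6.16 on the untreated arrays and 4.51 on mTORi-HDL 1, so the difference was 2.11 ± 0.28 (adjusted p 0.151) without that array and 0.91 ± 0.93 with it.

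Of 22 further membrane genes, 9 had positive differences, with a median of -0.05, and 12 without mTORi-HDL 1, with a median of 0.09. Tmem175, a lysosomal potassium and proton channel, had -1.01 ± 0.39 and, without mTORi-HDL 1, -1.0 ± 0.42. Its value on untreated 1 (4.85) lay close to the treated range of 4.62 to 4.79. Cd68, the macrophage sialomucin of late endosomes, was at 9.47, 10.87 and 10.87 on the treated and 9.60, 9.70 and 8.78 on the untreated arrays. The gene is also among the macrophage markers above, so it is not a separate observation. mTORi-HDL 2 and 3 lay above all untreated arrays, as they did for Lamp1 and Lamp2, and the difference was 1.04 ± 0.47 (unadjusted p 0.0591) with mTORi-HDL 1 and 1.51 ± 0.32 (adjusted p 0.325) without it. Sidt2, a lysosomal membrane protein that carries nucleic acid, had -0.80 ± 0.48, which was -0.42 ± 0.41 without mTORi-HDL 1, -0.39 after quantile normalization and -0.18 after cyclic loess.

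Of 11 further pump genes, Atp6v0a2 and Atp6v1d had -1.32 ± 0.52 and -1.53 ± 0.70, and -0.79 ± 0.35 and -0.66 ± 0.27 without mTORi-HDL 1. Atp6ap2, an accessory subunit also known as the prorenin receptor, had 1.5 ± 0.65 and 1.81 ± 0.70. Of 6 sorting genes, Igf2r, a mannose 6-phosphate receptor, and Gnptab and Gnptg, subunits of the enzyme that makes the sorting mark, had -0.81 ± 0.53, -1.11 ± 0.75 and -0.91 ± 0.48, with -0.20 ± 0.27, -0.18 ± 0.31 and -0.79 ± 0.53 when mTORi-HDL 1 was left out. Of 36 further autophagy genes, Atg16l2, a relative of Atg16l1, was at 4.82 to 4.95 on the treated and 5.37 to 5.56 on the untreated arrays. Its groups were separate and tight, with a difference of -0.60 ± 0.24 on all arrays and -0.60 ± 0.21 without mTORi-HDL 1. Atg4a, a protease that trims ATG8 proteins, had -1.07 ± 0.42 and -0.65 ± 0.26, and Atg2b, a lipid transfer protein of the growing autophagosome, had -0.53 ± 0.28 and -0.63 ± 0.26.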

How the data were processed

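The deposited table held log2 expression values for 41345 probe sets on each of 6 arrays, which the authors produced by RMA in the Affymetrix Expression Console, as the submitters' processing notes record. Versions, filters and the genome build are not given in the sources used here. Precision is limited by there being 3 arrays a group. Platform annotation gave 23521 probe sets 1 symbol, 1814 several and 16010 none. For the 1082 genes with several probe sets the brightest, by the mean of all 6 arrays, was used. No further normalization or filter was applied. Tests used lmFit and eBayes of limma 3.58.1 under R 4.3.3 (group only, two-sided, 4 residual degrees of freedom, or 3 without mTORi-HDL 1), adjusted by Benjamini-Hochberg over 22180 genes, after the code was tested on simulated data. SEs are limma's moderated errors. The 34 genes, the wider lists and the markers were chosen with earlier results of these data known. Values by array are given for the TFEB family, for members with an unadjusted p under 0.05 with or without mTORi-HDL 1 or with separate groups, and for some others; of each wider list the 3 genes with the smallest p are named. Deviations from the group mean correlated at 0.136, 0.135 and -0.024 between same-numbered samples and at -0.163 to 0.126 between differently numbered ones. Whether the number marks a pairing was not tested. Promoters came from RefSeq; a planned comparison of protein sequences was not made. Alternatives were median centring, quantile normalization, cyclic loess, filters on dim genes, other variance models, probe set averages, a replicate block and each array left out.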

Additional observations from a re-analysis of the deposited data

How the results depend on the processing

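None of the 34 genes passed under any alternative tried: other scalings, filters on dim genes, variance models, array weights, probe set averages, the replicate block, a threshold of 0.1, or each array left out. Over all genes 0 passed, except H2bc12 with array weights (1 gene). The replicate number as a replicate block left the count over all genes at 0. It could not change the differences or the class medians, since every number occurs in each group, so their staying the same shows nothing. The labels do not say that the number marks a pairing. Scaling moved some class medians: TFEB family to 0.72 (quantile) and 0.57 (cyclic loess), membrane proteins to 0.62 and 0.71, lumenal proteins to 0.34 (loess), autophagy to -0.22 (centring), 0.14 and 0.19. The genes with separate groups and a higher level then numbered 5 (quantile) and 6 (loess). The share of all genes with separate groups was not computed under these scalings, so these counts have no background. Sqstm1 turned to 0.43 under loess. Array weights gave 0.23, 0.50 and 0.03 for the TFEB family, lumenal proteins and autophagy, 1.17 for Hexa and 0.85 for Grn. The pump median was -0.31 with either filter on dim genes, which drops Atp6v0d2, and -0.27 with probe set averages; above the median level autophagy was at -0.12 and 0 genes were separate and lower, since Gabarapl1 was dropped.

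Leaving out single arrays gave class medians of 0.22 to 0.49 (TFEB family), 0.25 to 0.55 (membrane), -0.27 to 0.59 (lumenal), -0.21 to 0.09 (pump) and -0.22 to 0.08 (autophagy). Separate genes numbered 4 to 11 higher and 1 to 3 lower, but with an array fewer any gene separates more easily. Of all genes 5.37% were separate and higher and 5.53% lower on all arrays. Without mTORi-HDL 1 these shares were 9.75% and 12.5%, and for the other arrays left out they were not computed. Hexa ranged from -1.43 to 1.27, Grn from -0.84 to 0.90 and Lipa from -0.61 to 0.72. Without mTORi-HDL 1 and with quantile normalization, medians were 0.54 (membrane), 0.59 (lumenal) and 0.10 (autophagy), and Hexa and Grn were at 1.23 and 0.85. In that setting 12 genes were separate and higher, and the share of all genes was not computed. Without mTORi-HDL 1 and with the replicate block, medians were 0.19 (TFEB family), 0.67 (membrane), 0.61 (lumenal) and 0.13 (autophagy), with Hexa at 1.36 and Grn at 0.90. Sign changes smaller than the standard error on both sides were not counted. Apart from the dropped genes, the cause of these shifts was not tested.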
